A study of Oryza sativa Indica Group and Oryza sativa Japonica Group with 20 samples.

Results

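The regions described here carried H3K27me3 in rice male meiocytes, did not overlap H3K4me3, and lay within 1000 bp of it. They numbered 1413 of 23091 reproducible H3K27me3 regions, with 466 of 8219 in IR64 and 947 of 14872 in Azucena. They were chosen by measured values, namely the positions of the peaks called in these same libraries. For each cultivar and mark, peaks of both meiocyte replicates on chromosomes 1 to 12 were merged where they overlapped or touched. A merged region was kept as reproducible where it held a peak of each replicate. A reproducible H3K27me3 region is called flanking below where no base of it overlapped a reproducible H3K4me3 region and the gap to the nearest one was at most 1000 bp. The other H3K27me3 regions are called overlapping, where they shared at least 1 bp with H3K4me3, or farther, where the gap exceeded 1000 bp.

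Meiocytes, the cells that undergo meiosis, were taken from anthers of wild-type plants of the cultivars IR64 (Oryza sativa Indica Group) and Azucena (Oryza sativa Japonica Group) in prophase of meiosis I, as cell clusters drawn into glass capillaries. Histone marks were mapped by CUT&Tag, in which an antibody brings a transposase to the chromatin carrying a mark, so that nearby DNA is cut and tagged for sequencing. Each cultivar had 2 libraries for H3K4me3 and 2 for H3K27me3. Nothing in the labels says that the 2 libraries came from separate plants, so the p-values below speak only of variation among the libraries at hand, part or all of which could be technical.

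H3K4me3 marks the start of transcribed genes, where it is deposited by COMPASS-type methyltransferases as transcription begins. H3K27me3 is deposited by Polycomb repressive complex 2 and covers genes kept silent in a given cell type, in plants often over the gene body. The marks are linked to opposite transcriptional states, and the distance between them along the chromosome is one way to describe how active and silent stretches border each other.

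One library stood apart in depth. IR64 H3K27me3 replicate 1 had 47.91 M uniquely aligned reads, against 9.0 to 13.71 M in the other 7 libraries, per the authors' table. It gave 12629 peaks, against 10134 in its partner, and the 2 Azucena H3K27me3 libraries gave 17312 and 17570 peaks on the chromosomes. The H3K4me3 libraries gave 34583 and 33717 peaks in IR64 and 30232 and 31090 in Azucena, which merged into 29541 and 27224 reproducible regions. Since a region had to be called in both replicates, a peak called in the deep library alone did not enter.

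Flanking was the least frequent of the 3 relations to H3K4me3 in both cultivars. In IR64, 5.67% of the H3K27me3 regions flanked H3K4me3 (95% exact binomial interval 5.18 to 6.19%), 45.3% overlapped it and 49.1% lay farther away. In Azucena, 6.37% flanked it (5.98 to 6.77%), 34.3% overlapped it and 59.4% lay farther away. These intervals and the others below cover counting error only. When the H3K27me3 regions were moved along their chromosomes by 10000 to 100000 bp in both directions (20 shifts), 14.3% of them flanked H3K4me3 in IR64 and 14.1% in Azucena. The observed shares thus lay below the background at nearby positions. Flanking was the least frequent relation after shifting too, with means of 1177.7 flanking, 1432.8 overlapping and 5608.6 farther regions in IR64. In Azucena these means were 2100.8, 2605.7 and 10165.5.

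In numbers, the shifted IR64 regions flanked H3K4me3 in 1113 to 1241 cases per shift (mean 1177.7), so that the 466 observed were 0.396 times the mean. The shifted Azucena regions did so in 1993 to 2157 cases (mean 2100.8), so that the 947 observed were 0.451 times the mean. The members were defined by the same positions, so this is a description and no p is given. Overlap went the other way, with 2.60 times the shifted mean in IR64 and 1.96 times in Azucena, which by itself left fewer regions able to flank. Among the regions without overlap, 10.4% of 4498 flanked H3K4me3 in IR64, against 17.4% after shifting (16.4 to 18.3% over the shifts). In Azucena it was 9.69% of 9778, against 17.1% (15.96 to 17.68%). The shifted shares are over the regions without overlap at each shifted position, which are not the same regions as those observed without overlap. Between these unlike sets, flanking regions were 0.597 and 0.565 times as frequent as at shifted positions. Without the shallower IR64 H3K27me3 replicate 2, the deep replicate alone gave 802 flanking regions, 0.451 times its shifted mean.

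The deficit was deepest next to H3K4me3. In IR64, 23 regions had a gap of 0 to 100 bp, against a shifted mean of 132.6, and 32 had a gap of 101 to 250 bp, against 180.3. These were 0.174 and 0.177 times the shifted numbers. In Azucena, 46 regions had a gap of 0 to 100 bp, against 227.1, and 62 had a gap of 101 to 250 bp, against 326.9, or 0.203 and 0.190 times. The ratio was then 0.311 in IR64 and 0.309 in Azucena at 251 to 500 bp. It was 0.564 and 0.668 at 501 to 1000 bp, and past the limit 0.543 and 0.631 at 1001 to 2000 bp and 0.722 and 0.859 at 2001 to 5000 bp.

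Among the regions without overlap, again taken separately at each shift, the ratio was 0.262 in IR64 and 0.254 in Azucena at 0 to 100 bp. It was 0.850 and 0.838 at 501 to 1000 bp, and 1.09 and 1.08 at 2001 to 5000 bp. At 251 to 500 bp it was 0.469 and 0.388 and at 1001 to 2000 bp 0.819 and 0.792. The widest step between neighbouring bins thus lay between 251 to 500 bp and 501 to 1000 bp, and the ratio differed little across the limit of 1000 bp. Neighbouring regions of the same mark could also lie close together. In IR64, 217 pairs of neighbouring H3K27me3 regions and 938 pairs of neighbouring H3K4me3 regions were at most 500 bp apart, and in Azucena 776 and 637 pairs. These pairs are of a single mark, and whether the peak calls bear on short gaps between the marks was not tested.

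**Figure D1:**
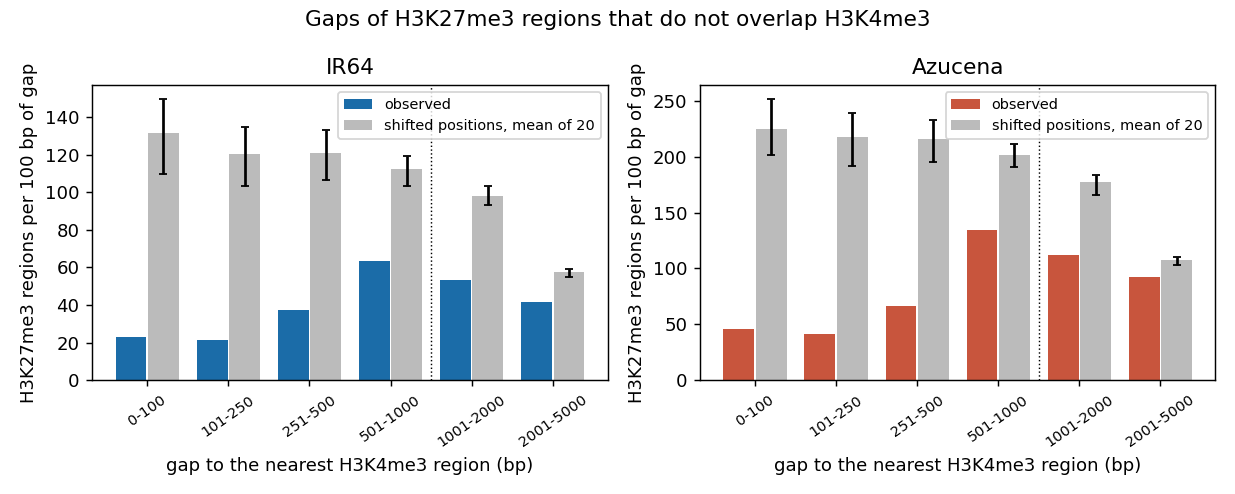
H3K27me3 regions per 100 bp of gap (vertical axis) by the gap in bp to the nearest H3K4me3 region (horizontal axis), observed (coloured bars) and as the mean of 20 shifts (grey bars, with error bars from the lowest to the highest shift), for IR64 and Azucena; the dotted line is the limit of 1000 bp. The coloured bars are below the grey ones in every bin, with ratios of 0.174 and 0.203 at 0 to 100 bp and of 0.722 and 0.859 at 2001 to 5000 bp.

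The gaps of the flanking regions were accordingly long for the limit. The median gap was 644 bp in IR64 (quartiles 439.5 and 820.8 bp, smallest 15 bp) and 658 bp in Azucena (450.5 and 818 bp, smallest 3 bp). More than 500 bp separated the marks at 317 of 466 members in IR64 (68.0%) and at 672 of 947 in Azucena (71.0%). These gaps are between merged regions. Between single libraries the median gap at the same members was longer, at 745 to 794.5 bp in IR64 and 740 to 764 bp in Azucena. Peak edges were not fixed to the base. When the gap was measured between single libraries, its range over the 4 combinations of an H3K27me3 and an H3K4me3 library had a median of 228.5 bp in IR64 and, in Azucena, 178 bp. The gap was at most 1000 bp in all 4 combinations at 303 members in IR64 (65.0%, interval 60.5 to 69.4%) and at 677 in Azucena (71.5%, 68.5 to 74.4%). Summits, the positions of highest signal, lay farther apart than edges. The median distance from an H3K27me3 summit to the H3K4me3 summit was 1489 to 1523.5 bp over the 4 combinations in IR64 and 1551 to 1559 bp in Azucena.

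The absence of overlap also depended on which H3K4me3 peaks counted. In IR64, 76 members (16.3%) overlapped an H3K4me3 peak that only 1 replicate had, against 15.0% of the farther regions. In Azucena it was 129 members (13.6%), against 12.1% of the farther regions. H3K27me3 regions that only 1 replicate had are not members. They flanked H3K4me3 in 447 of 5933 cases in IR64 (7.53%) and in 367 of 4381 in Azucena (8.38%). They overlapped H3K4me3 in 21.25% of cases in IR64 and 22.94% in Azucena, against 45.3% and 34.3% of the reproducible regions. A larger part of them was thus able to flank, so their flanking shares are not directly comparable with those of the reproducible regions.

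Nearly all members had H3K4me3 within reach on a single side. In IR64, 222 had it only toward the lower coordinates, 230 only toward the higher ones, and 14 on both sides (3.00%, interval 1.65 to 4.99%). In Azucena the numbers were 449, 471 and 27 (2.85%, 1.89 to 4.12%). The 2 single-sided shares did not differ beyond counting error in either cultivar, since their intervals overlapped. Of the regions flanking H3K4me3 after shifting, 3.74% in IR64 (2.87 to 4.62% over the shifts) and 3.25% in Azucena (2.69 to 3.72%) did so on both sides, so the observed shares fell within the range of the shifts. For the members with H3K4me3 on a single side, the next H3K4me3 region on the other side was a median of 7566 bp away in IR64 and 8639.5 bp in Azucena. The reverse arrangement, an H3K4me3 region with a member on each side, occurred 3 times in IR64 and 13 times in Azucena.

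Positions below are those of the cultivar's deposited peak lists, counted from 1, and the genome builds are not given in the sources used here. The both-sided member of highest H3K27me3 fold enrichment in IR64 covered bases 34819407 to 34820418 of chromosome 2 (1012 bp). It lay 346 bp from the H3K4me3 region before it and 694 bp from the one after it. Its fold enrichment, the peak caller's ratio of signal at the summit to local background, was 5.74 and 5.56 in the 2 libraries. The next in IR64 lay on chromosome 10, at 23340984 to 23342455, with gaps of 143 and 727 bp and folds of 5.69 and 4.80. The third, at 31836687 to 31838700 of chromosome 2, had folds of 5.08 and 4.02. In all 3, both libraries gave a fold above the median of the members, narrowly so in replicate 2 of the third.

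In Azucena, the both-sided member of highest fold lay on chromosome 3, at 33875076 to 33875802, with gaps of 64 and 576 bp. Its folds were 7.36 and 4.93, so the 2 libraries differed more here than at the next, at 42967284 to 42969015 of chromosome 1 (5.67 and 5.93). The third, at 22235745 to 22238138 of chromosome 7, was a stretch of 2394 bp with H3K4me3 only 50 bp before it and 24 bp after it, and had folds of 6.12 and 4.97. It came nearest among the 3 to filling the whole space between its H3K4me3 neighbours.

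The deficit held on each chromosome. The observed number was below the shifted mean on 12 of 12 chromosomes in both cultivars, at 0.344 to 0.479 times in IR64 and 0.397 to 0.516 times in Azucena. In IR64 the flanking share was lowest on chromosome 12 (4.06%) and highest on chromosome 2 (6.97%). In Azucena it was lowest on chromosome 11 (4.56%) and highest on chromosome 1 (7.46%). Chromosome 11 also had the lowest density of H3K4me3 regions of the 12 in both cultivars (61.0 per Mb in IR64 and 55.4 per Mb in Azucena), and chromosome 3 had the highest (92.8 and 88.3 per Mb). The shifted share was likewise lowest on chromosome 11 and highest on chromosome 3. No member lay within 1000 bp of a chromosome's start or last called base.

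**Figure D2:**
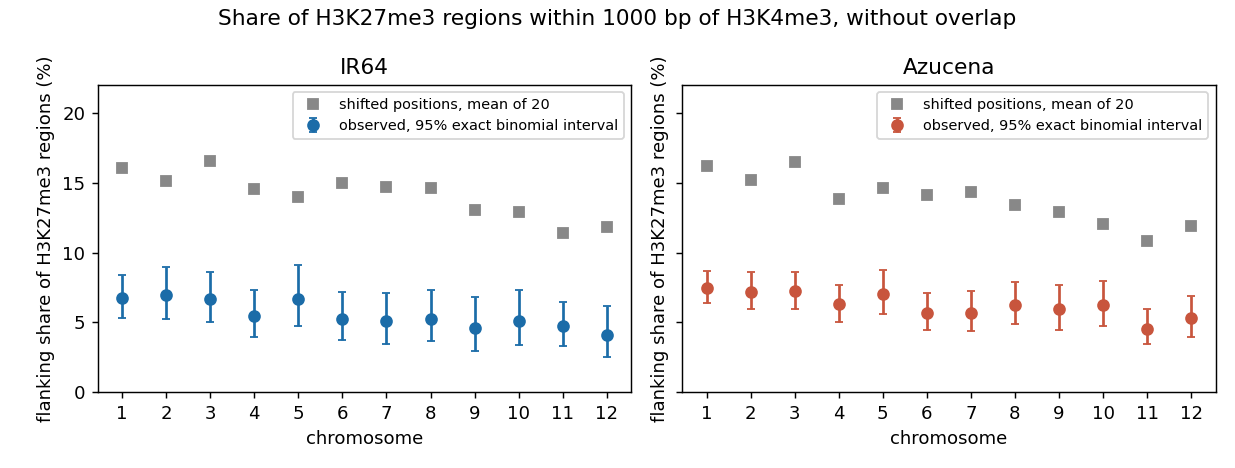
Share of H3K27me3 regions that flank H3K4me3, in percent (vertical axis), on each of 12 chromosomes (horizontal axis), observed (circles, with 95% exact binomial intervals) and at shifted positions (grey squares, mean of 20 shifts). The circles lie between 4.06 and 6.97% for IR64 and between 4.56 and 7.46% for Azucena, below the square on every chromosome.

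Flanking regions were about as wide as the farther ones. The median width was 831.5 bp in IR64 (quartiles 609.5 and 1191.8 bp, range 295 to 3579 bp), against 849 bp for the farther and 1048 bp for the overlapping regions. In Azucena it was 865 bp (607.5 and 1304.5 bp, range 286 to 3686 bp), against 917 and 1220 bp. Widths over 2000 bp were found in 1.93% of the members in IR64 and 6.97% in Azucena, against 5.05% and 13.1% of the overlapping regions. A wider region is more likely to reach H3K4me3, so width bears on the choice of members and these values carry no test. The order of flanking and farther regions in IR64 was not stable. Without H3K27me3 replicate 2, the flanking regions were 1.04 times as wide as the farther ones, against 0.979 times with both replicates. With both replicates and a limit of 500 bp they were 1.02 times as wide. In the both-sided members the median width was 978.5 bp for the 14 regions of IR64 and 887 bp for the 27 of Azucena.

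The widest member in IR64 spanned 3579 bp, at 14761149 to 14764727 of chromosome 5, 679 bp from H3K4me3. Its folds were low in both libraries, at 2.33 and 2.17. The widest in Azucena spanned 3686 bp, at 12047854 to 12051539 of chromosome 3, 790 bp from H3K4me3, with folds of 2.07 and 2.05. The following 2 in Azucena spanned 3525 bp on chromosome 4 (26203760 to 26207284, with H3K4me3 on both sides at 986 and 340 bp) and 3349 bp on chromosome 9 (18021374 to 18024722, 56 bp from H3K4me3). The first of them had folds of 3.03 and 3.45, and the second had folds of 3.15 and 3.23. The other 2 of the 3 widest in IR64 both lay on chromosome 4. One, at 29499785 to 29502180, had folds of 2.57 and 2.78, and the other, at 28741643 to 28743903, had folds of 4.16 and 5.12. Of these 6 wide members, 4 had folds below the median member in both libraries of their cultivar, 1 was below it in replicate 1 alone, and 1 was above it in both.

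H3K27me3 was weaker in the flanking regions than in the overlapping ones. In IR64 replicate 1 the median fold was 3.82 over 476 peaks in members, 4.52 over overlapping and 4.05 over farther regions. In IR64 replicate 2 it was 3.86 over 479 peaks, against 4.56 and 4.13. In Azucena replicate 1 it was 3.30 over 958 peaks, against 4.00 and 3.39, and in Azucena replicate 2 it was 3.36 over 969 peaks, against 4.20 and 3.48. The deep library gave nearly the same medians as its partner.

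On the log2 scale, the median fold of the members was below that of the overlapping regions in 4 of 4 libraries, by a mean difference of -0.27 ± 0.04 (SD, n = 4), a ratio of 0.828. A two-sided exact sign-flip permutation test gave p = 0.125, the smallest p that 4 libraries allow (0.313 adjusted over the 5 tests made). The members were also below the farther regions in 4 of 4 libraries, by -0.07 ± 0.03 (SD, n = 4), a ratio of 0.953, with the same exact p of 0.125 (adjusted 0.313). Neither difference could pass 0.05 in this design. The 2 libraries of a cultivar were scored on the same regions, each holding a peak of both, so the 4 differences are not fully independent. With only peaks of a fold of at least 4, the difference from the overlapping regions was -0.10 (exact sign-flip p = 0.125). That from the farther regions was -0.0067 (exact sign-flip p = 0.625). This filter cuts off the lower folds of every class, which can by itself narrow the differences. It left 60 members in IR64 and 79 in Azucena. The quartiles of the 3 classes overlapped widely within each library.

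**Figure D3:**
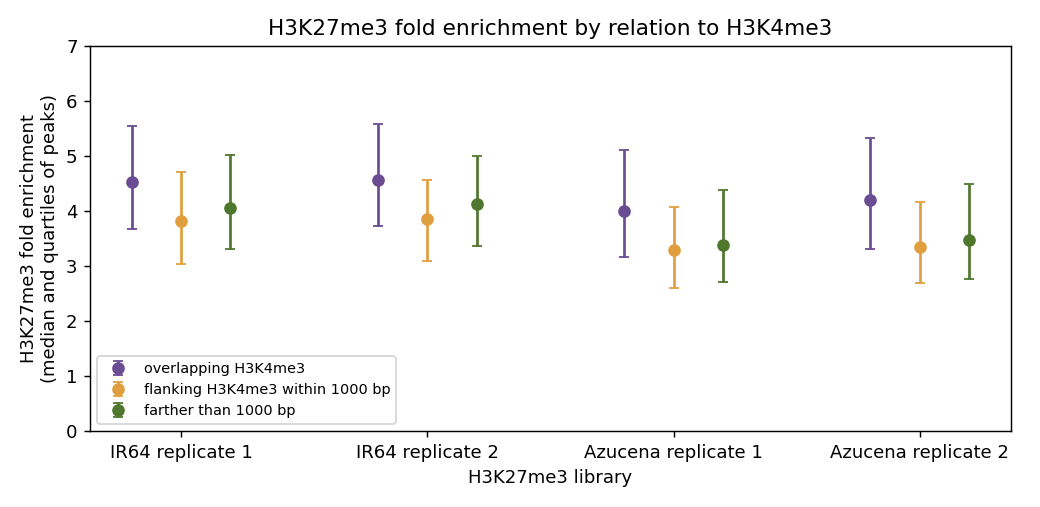
H3K27me3 fold enrichment (vertical axis, a ratio, from the authors' peak lists) in each of the 4 H3K27me3 libraries (horizontal axis), as the median (points) and quartiles (bars) of peaks in overlapping (purple), flanking (orange) and farther (green) regions. The flanking median is the lowest of the 3 in each library, from 3.30 to 3.86, while the bars of the classes overlap.

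Flanking was less frequent among H3K27me3 regions of high fold. When the regions of a cultivar were ranked by mean fold over both replicates and cut into 5 equal bins, the lowest bin held 8.58% flanking regions in IR64 (interval 7.27 to 10.0%) and the highest bin 2.80% (2.06 to 3.72%). In Azucena the lowest held 8.98% (7.97 to 10.1%) and the highest 3.09% (2.50 to 3.78%). Part of this follows from overlap, whose share rose from 32.9 to 58.9% between the same bins in IR64 and from 18.6 to 49.7% in Azucena. Among regions without overlap, the flanking share from the lowest to the highest bin was 12.8, 12.6, 9.46, 8.24 and 6.82% in IR64. In Azucena it was 11.0, 9.61, 10.96, 9.52 and 6.15%, so the main drop there came only at the highest bin. Ranked by width instead, that share was 10.6% in the narrowest and 9.31% in the widest bin in IR64, where the fourth bin was highest (11.5%). In Azucena it was 10.3% in the narrowest and 8.59% in the widest bin. The difference between the end bins was smaller than with fold.

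**Figure D4:**
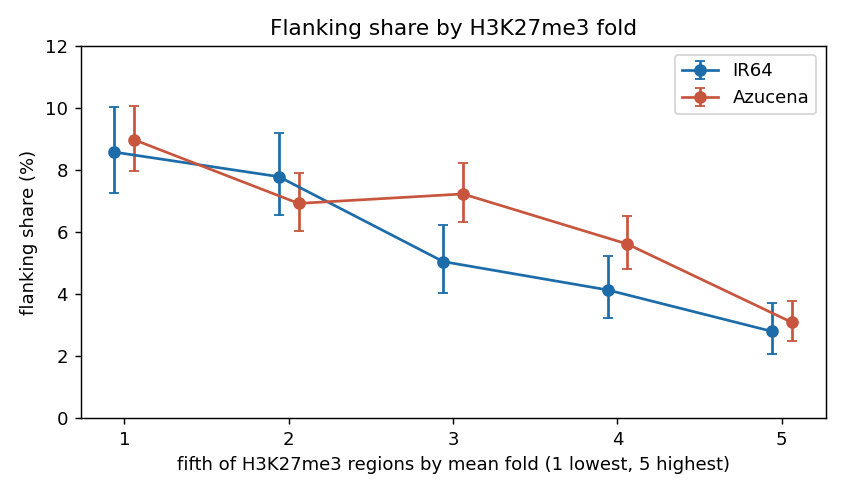
Flanking share of H3K27me3 regions in percent (vertical axis) over 5 equal bins of regions ranked by mean fold (horizontal axis, 1 lowest to 5 highest), for IR64 (blue) and Azucena (red), with 95% exact binomial intervals. The lowest and highest bins stand at 8.58 and 2.80% for IR64 and at 8.98 and 3.09% for Azucena, where the middle bin (7.23%) lies above the one before it.

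Very high folds were therefore uncommon among members. The highest mean fold was 11.6 among the members and 30.8 among all H3K27me3 regions in IR64, and 8.86 and 30.2 in Azucena. Above the 95th percentile of all regions lay 9 members in IR64 (1.93%) and 11 in Azucena (1.16%). Mean folds of at least 10 were reached by 4 members in IR64 and by 0 in Azucena.

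These 4 IR64 members were short peaks. The first, at 26466880 to 26467213 of chromosome 2 (334 bp), had folds of 10.9 and 12.3 (mean 11.6 ± 1.02, SD, n = 2) and lay 306 bp from an H3K4me3 region of 1286 bp with a mean H3K4me3 fold of 3.77. The second, at 1926101 to 1926566 of chromosome 1 (466 bp), had folds of 10.5 and 12.4 and lay 802 bp from H3K4me3. The third, at 2456555 to 2456851 of chromosome 1 (297 bp), had folds of 9.41 and 11.9 and a gap of 491 bp. The fourth, at 4771031 to 4771352 of chromosome 5 (322 bp), had folds of 10.1 and 10.6 and a gap of 608 bp. In each of the 4, both libraries gave a fold far above the median of the members, and each was narrower than the first quartile of member widths.

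The fifth IR64 member by fold was of ordinary width. It covered 6217611 to 6218767 of chromosome 1 (1157 bp), with folds of 7.45 and 8.43, and lay 939 bp from an H3K4me3 region of 1076 bp whose mean H3K4me3 fold was 6.29. The 5 Azucena members of highest fold were all 948 to 1359 bp wide. The first, at 14861515 to 14862464 of chromosome 10, had folds of 9.32 and 8.41 (mean 8.86 ± 0.645, SD, n = 2) and lay 259 bp from H3K4me3. The second, at 6479108 to 6480466 of chromosome 1, had folds of 7.91 and 9.18 and lay 697 bp from an H3K4me3 region of 1086 bp with a mean fold of 5.47. The third, on chromosome 11 at 22666366 to 22667313, had folds of 7.40 and 9.01 with a gap of 534 bp. The fourth, on chromosome 12 at 2522127 to 2523076, had folds of 8.51 and 7.83 with a gap of 762 bp. The fifth, on chromosome 10 at 4036894 to 4038173, had folds of 7.42 and 8.91 with a gap of 886 bp. In none of these 10 members did the nearest H3K4me3 region overlap another H3K27me3 region. Among all members it did so at 152 of 466 in IR64 and at 423 of 947 in Azucena. The 10 are too few for a statement on members of high fold.

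Some regions lay within a few bp of the limit. The IR64 members just inside it had gaps of 1000 bp (chromosome 1, 39129298 to 39129796, folds 3.65 and 4.83) and 998 bp (chromosome 5, 28474370 to 28475902, folds 5.74 and 4.40). The regions just outside had gaps of 1003 bp (chromosome 4, 24928745 to 24929101, folds 2.36 and 2.31) and 1004 bp (chromosome 7, 26310850 to 26311225, folds 2.95 and 2.87). In Azucena the gaps just inside were 1000 bp (chromosome 3, 494524 to 494961, folds 2.53 and 2.38) and 999 bp (chromosome 10, 17441574 to 17442420, folds 4.70 and 3.91). Just outside they were 1001 bp (chromosome 1, 7170604 to 7171091, folds 5.93 and 5.36) and 1002 bp (chromosome 8, 18374598 to 18374955, folds 5.36 and 6.09). Folds were higher inside in IR64 and higher outside in Azucena in these few regions.

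The H3K4me3 regions beside the members made up 477 of 29541 in IR64 (1.61%) and 958 of 27224 in Azucena (3.52%). In IR64 they had a median width of 961 bp, against 1050 bp where no H3K27me3 lay within 1000 bp, and in Azucena 941 against 1033 bp. The median H3K4me3 fold of peaks beside a member was 3.78 and 3.50 in the IR64 libraries, against 3.67 and 3.47 with no H3K27me3 near. It was 3.69 and 3.65 in the Azucena libraries, against 3.84 and 3.81. The mean log2 difference was -0.02 ± 0.05 (SD, n = 4), with 2 of 4 libraries below 0, and the two-sided exact sign-flip permutation test gave p = 0.5 (adjusted 0.5). The 2 libraries of a cultivar shared their regions here too. The mean difference was smaller than its spread between libraries. It was -0.06 with regions cut to the bases called in both replicates and -0.03 with folds of at least 4, with an exact sign-flip p of 0.125 each, which 4 libraries give only when all lie on the same side.

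Many members were beside an H3K4me3 region that itself overlapped a different H3K27me3 region. This held for 155 of the 477 flanked H3K4me3 regions in IR64 (32.5%) and 420 of the 958 in Azucena (43.8%), against 12.6% and 18.8% of all H3K4me3 regions. Seen from the members, another H3K27me3 region lay within 1000 bp of 157 in IR64 (33.7%, interval 29.4 to 38.2%) and of 494 in Azucena (52.2%, 48.9 to 55.4%). The share was 12.4% and 27.9% for the farther regions and 9.97% and 15.9% for the overlapping ones. The nearby region overlapped H3K4me3 in 138 of those 157 cases in IR64 (87.9%) and in 390 of those 494 in Azucena (78.9%). For 132 members in IR64 and 383 in Azucena it lay on the side of the member's own H3K4me3 region. Regions close to an H3K4me3 region are by their position also close to whatever overlaps it, so these shares are a description.

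The arrangement depended on the gap. In IR64, the nearest H3K4me3 region overlapped another H3K27me3 region at 4 of 23 members with a gap of 0 to 100 bp (17.4%, interval 4.95 to 38.8%). It did so at 105 of 317 members with a gap of 501 to 1000 bp (33.1%, 28.0 to 38.6%). In Azucena it did so at 4 of 46 members (8.70%, 2.42 to 20.8%) and at 328 of 672 (48.8%, 45.0 to 52.7%). Past the limit, at 2001 to 5000 bp, the share was 19.1% in IR64 and 30.0% in Azucena. The intervals of the nearest and the 501 to 1000 bp bin did not overlap in Azucena and did in IR64, where the nearest bin held few regions. In every gap bin of both cultivars, most regions were beside an H3K4me3 region that overlapped no other H3K27me3 region. Of all H3K4me3 regions, 12.6% in IR64 and 18.8% in Azucena overlapped H3K27me3. Both values lay within the interval of the cultivar's nearest bin.

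**Figure D5:**
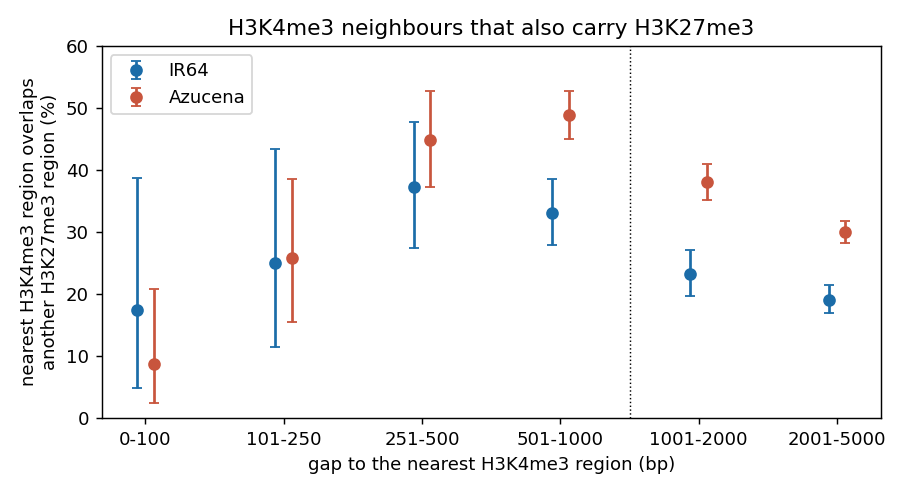
Percent of H3K27me3 regions without overlap whose nearest H3K4me3 region overlaps another H3K27me3 region (vertical axis), by the gap to that H3K4me3 region in bp (horizontal axis), for IR64 (blue) and Azucena (red), with 95% exact binomial intervals and a dotted line at the limit of 1000 bp. The share is 17.4 and 8.70% at 0 to 100 bp, 33.1 and 48.8% at 501 to 1000 bp, and 19.1 and 30.0% at 2001 to 5000 bp.

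Between cultivars, members took a smaller share of the called H3K27me3 peaks in IR64 than in Azucena. Of the peaks of each library, 3.77% and 4.73% lay in members in IR64 and 5.53% and 5.52% in Azucena. The means were 4.25 ± 0.677% and 5.52 ± 0.0132% (SD, n = 2 each), and the libraries of the cultivars did not overlap. A two-sided exact permutation test gave p = 0.333, the smallest that 2 against 2 allows (adjusted 0.417). The difference of -1.28 percentage points was -0.798 without the deep IR64 replicate 1, -0.259 with folds of at least 4, and -0.241 and -3.06 with limits of 500 and 2000 bp. These shares are over all called peaks of a library, also those outside reproducible regions, which cannot lie in members. The deep IR64 library had the lowest of the 4 shares, with 476 of 12629 peaks in members, against 479 of 10134 in its partner. Depth and cultivar cannot be told apart in that library. Of the reproducible regions, 5.67% flanked H3K4me3 in IR64 and 6.37% in Azucena. Overlap took 45.3% of them in IR64 and 34.3% in Azucena, which left a smaller part of the IR64 regions able to flank. Among the regions without overlap the order was reversed, at 10.4% in IR64 and 9.69% in Azucena. The median fold of the members was higher in IR64, at 3.84 ± 0.0242 against 3.33 ± 0.0384 (SD, n = 2 each), a log2 difference of 0.21 with the same exact p of 0.333 (adjusted 0.417). With folds of at least 4 the difference was 0.0328 (exact permutation p = 0.667), and the libraries of the cultivars no longer separated. Cutting off the lower folds can by itself narrow this difference. Folds of the cultivars come from separate peak calls on lists with different chromosome names and ends, so their scale may differ, which was not tested.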

How the data were processed

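The deposited narrowPeak lists of the 8 meiocyte CUT&Tag libraries were used. The submitters' processing notes name MACS2 2.1.0, Bowtie2, fastp 0.20.1 and Bismark 0.22.3, with no roles given. The genome builds, the control and the duplicate filter are not given in the sources used here. The authors' lists give each peak's fold enrichment (a ratio to local background) and −log10 q-value, and the lowest deposited −log10 q of a list was 2.01 to 2.03. The authors' table gives peak counts and uniquely aligned reads per library. The deposited bisulfite coverage table, the 4 flag-leaf CUT&Tag samples and the contigs were not used for the comparisons. Groups and replicate numbers came from the titles, and equal numbers share only a number.

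From the lists, peaks were merged where they overlapped or touched. Members and classes were chosen with earlier results of these data known. The H3K27me3 regions were shifted around each chromosome 20 times, by 10000 to 100000 bp in both directions, and as an alternative by 20 even fractions of the chromosome. Folds were compared within libraries by a two-sided exact sign-flip permutation test of median log2 fold, and cultivars by an exact permutation test, with Benjamini-Hochberg adjustment over 5 tests. Intervals are exact (Clopper-Pearson). Regions are named by rule, per cultivar: the 5 members of highest mean fold, the 3 both-sided members of highest mean fold, the 3 widest, and the 2 regions on each side of the limit. Genes are not named and no sequence is shown, since the gene table at hand is of another assembly. Alternatives were a −log10 q of at least 5, a fold of at least 4, gap limits of 500 and 2000 bp, merging within 500 bp, the bases called in both replicates, H3K4me3 peaks of either replicate, chromosome ends left out, and each library left out. Python 3.11.15, numpy 2.4.6, scipy 1.17.1 and matplotlib 3.10.9 were used, and the functions were checked on simulated regions.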

Additional observations from a re-analysis of the deposited data

Results flagged for a closer look

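The H3K4me3 fold of the regions beside a member, set against H3K4me3 regions with no H3K27me3 within 1000 bp, went opposite ways in the cultivars. The ratio of the medians was 1.02 in IR64 and 0.961 in Azucena (means of 2 libraries each), above 1 in both IR64 libraries and below 1 in both Azucena libraries. The difference between the cultivars was not tested. The opposite directions were not seen with regions cut to the bases called in both replicates (mean log2 difference -0.06) or with folds of at least 4 (-0.03), where all 4 libraries were below 0.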

How the results depend on the processing

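In the 13 alternative settings computed for each cultivar, flanking regions were fewer than at shifted positions. Of 246 values recomputed for 19 results, 3 changed direction. The tests cannot pass 0.05 at this size, so their p-values say nothing about stability. With a fold of at least 4, the fold and cultivar differences shrank as given above, and for folds the filter can by itself narrow them. From 466 members in IR64, the number moved to 254 with −log10 q of at least 5, 60 with fold of at least 4, 149 with a limit of 500 bp and 999 with 2000 bp, and to 472 to 802 with 1 library left out. From 947 in Azucena it moved to 79, 275 and 2067 with the same fold and limits. The ratio to shifted positions in IR64 was 0.349 with the q filter, 0.346 with the fold filter, 0.359 with H3K4me3 peaks of either replicate, 0.242 with 500 bp, 0.463 with 2000 bp, 0.343 with peaks merged within 500 bp and 0.367 to 0.451 with 1 library left out. In Azucena it was 0.303 (fold), 0.251 (500 bp), 0.534 (2000 bp), 0.391 (merged) and 0.495 (whole-chromosome shifts). The both-sided share was 0, 0 and 5.71% in IR64 and 0, 0.727 and 5.42% in Azucena with the fold filter, 500 bp and 2000 bp. Flanking over farther width in IR64 was 0.888 with the bases called in both replicates, turned to 1.02 at 500 bp, and ran from 0.903 to 1.04 with 1 library left out. The H3K4me3 log2 difference turned to 0.0028 without Azucena H3K4me3 replicate 1 (range -0.0383 to 0.0028 with 1 library left out). With the replicate number as a replicate block, the cultivar differences were -1.28 percentage points and 0.21 (log2), each with an exact p of 0.5. The share among regions without overlap was added after the data were seen. The cause of these moves was not tested.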

Other observations

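The fifth IR64 member by H3K27me3 fold and the second Azucena member by fold were alike. Both lay on chromosome 1, at 6217611 and 6479108, were 1157 and 1359 bp wide, had folds of 7.45 and 8.43 and of 7.91 and 9.18, and had an H3K4me3 region on the lower side of 1076 and 1086 bp with a mean fold of 6.29 and 5.47. Whether they are the same locus was not tested, since the cultivars' lists differ in chromosome names and ends and no build is given for them here. The pair was picked after its values were seen.

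In IR64 the median fold at 0 to 100 bp was 4.32 in replicate 1 and 3.87 in replicate 2, against 3.72 and 3.88 at 501 to 1000 bp. In Azucena it was 3.51 and 3.65, against 3.37 and 3.38. The nearest bin held only 23 regions in IR64 and 46 in Azucena. At 101 to 250 bp the median fold was 3.675 and 3.837 in IR64 and 3.219 and 3.203 in Azucena. These values lay below those at 501 to 1000 bp, so folds did not rise steadily toward H3K4me3. In IR64 the members at 0 to 100 bp were at the median 900 bp wide, against 824 bp at 501 to 1000 bp, and in Azucena 1249.5 against 842 bp.

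The contigs of the Azucena lists held 34 reproducible H3K27me3 regions, of which 18 overlapped H3K4me3, 16 lay farther away and 0 flanked it.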
